A study of Mus musculus with 4 samples.

Results

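Lysosomal enzymes and the proton pump that acidifies the lysosome were measured by single-cell RNA sequencing (scRNA-Seq) in mouse bone marrow (BM) macrophages that had or had not engulfed apoptotic prostate cancer cells. The set was a fixed list of 52 gene symbols, chosen with earlier results of these data known and matched to 52 of the 31053 genes in the count tables. It held 10 cathepsins, 14 other hydrolases, 9 membrane, transport and activator proteins of the lysosome, 16 proton pump genes and 3 transcription factors of the MiT/TFE family (Tfeb, Tfe3 and Mitf). All 52 genes passed the filter on low counts, together with 13869 genes in all.

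Primary BM macrophages of male C57BL/6J mice, 4 to 6 weeks old, were grown with M-CSF and then co-cultured for 16 to 18 h with UV-killed RM1 cells, a mouse prostate cancer line of the same strain, which had been stained with the dye CFSE. The sort took F4/80+CFSE+ cells as efferocytic and cells positive for F4/80 only as non-efferocytic BM macrophages. The study describes the latter in one place as cells that did not engulf and in another as macrophages alone, so it is uncertain whether they had shared a dish with apoptotic cells. Each of 2 experiments gave 1 library of each group, made with a 10x Genomics 3′ kit that tags each captured transcript with a unique molecular identifier (UMI). The labels number the experiments but do not say whether they used different animals. The p-values therefore cannot be read as measuring a spread between animals. They set the difference between the groups against its disagreement between the 2 experiments, a spread that the fit estimated in part across genes.

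The libraries held 6695 to 13411 cells and 101216659 to 155224183 UMIs in cells. Efferocytic cells carried more UMIs each, with means of 18670 and 18461 per cell against 12224 and 10316 in the non-efferocytic libraries of Experiments 1 and 2. Levels are given in CPM, the UMIs of a gene scaled to the UMIs of all cells of the library, which is a share of the RNA, and as UMIs per cell where the 2 scales differ. Beyond 118 barcodes shared by the 2 libraries of Experiment 2, where 16.6 were expected by chance, pairs of libraries shared 14 to 23 cell barcodes, against 8.16 to 16.3 expected. RM1 cells are of mouse origin, so lysosomal transcripts taken up with them cannot be told apart from those of the macrophage. The summed level of 9 epithelial markers was 0.632 and 10.8 CPM in the non-efferocytic and 0.136 and 8.96 CPM in the efferocytic libraries, and Krt8 was at 0 in both libraries of Experiment 1. The study lists RM1 as fibroblast-like, and whether RM1 expresses these markers was not tested. Their level therefore cannot show how much RM1 RNA was present.

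The lysosome is the compartment in which engulfed cells are taken apart. Cathepsins and legumain cut proteins, glycosidases remove sugars, lipases and ceramidase split lipids, and DNase II degrades the DNA of the engulfed nucleus. These enzymes need an acidic lumen, which is set up by the vacuolar H+-ATPase (V-ATPase). Its V1 sector hydrolyses ATP in the cytosol, and its V0 sector carries protons across the membrane. Transcription factors of the MiT/TFE family, among them TFEB, TFE3 and MITF, bind an E-box in the promoters of many lysosomal genes, and are controlled largely by phosphorylation at the lysosome and by entry into the nucleus.

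Promoter windows from RefSeq on GRCm38.p6, covering 250 bases before and 50 bases after the transcription start, were found for 43 of the 52 genes. The genes without a window were Ctsh, Ctsb, Asah1, Npc1, Atp6v0d2, Atp6v1c1, Atp6v1g1, Atp6v1h and Atp6v1b2. The E-box core CACGTG, which reads the same on both strands, was present in 13 of the 43 genes (30.2%), against 2187 of 27025 genes (8.09%) with windows of this length. Stretches from 6 of these genes are shown, since they carry the motif in a lysosomal protease, an ion channel, a membrane protein and subunits of both pump sectors. Capitals mark CACGTG, and the sequences run 5′ to 3′ on the strand of the gene.
Ctsa, chr2:164833741-164833772, + strand: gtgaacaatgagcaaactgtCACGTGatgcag
Ctsd, chr7:142387900-142387945, - strand: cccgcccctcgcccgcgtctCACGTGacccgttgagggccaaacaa
Mcoln1, chr8:3500428-3500499, + strand: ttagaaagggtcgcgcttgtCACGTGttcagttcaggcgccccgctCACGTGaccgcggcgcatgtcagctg
Lamp1, chr8:13159080-13159160, + strand: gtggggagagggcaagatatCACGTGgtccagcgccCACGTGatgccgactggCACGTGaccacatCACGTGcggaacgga
Atp6v1a, chr16:44139365-44139410, - strand: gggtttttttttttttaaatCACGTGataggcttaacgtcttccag
Atp6v0b, chr4:117887330-117887385, - strand: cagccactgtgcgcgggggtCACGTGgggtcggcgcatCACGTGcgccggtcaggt

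Lamp1 held 4 copies of the core in the 81 bases shown, and Mcoln1 and Atp6v0b held 2 each. The longer form TCACGTGA, searched after these matches had been read, was present in 6 of 43 genes (14.0%) against 1.12% of all genes, in Ctsa, Ctsd, Mcoln1, Atp6v0d1, Atp6v1a and Atp6v0e. The full palindrome of the CLEAR element, which contains both shorter forms, was found in 0 of 43 genes and in 0.370% of all genes. The hypoxia response core ACGTG, which lies inside CACGTG, was present on either strand in 41.9% of the 43 genes against 21.8% of all genes. This share counts each gene with CACGTG again. Of the 18 members with ACGTG, 13 had CACGTG, and of the 5886 genes with ACGTG among all genes, 2187 had it. An excess of ACGTG outside the E-box can therefore not be read from these shares. The relative GCGTG was present in 44.2% against 35.2%. A match describes the letters of the window and not the binding of a factor.

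In the efferocytic BM macrophages, 30 of the 52 genes were significantly higher and 6 significantly lower at an adjusted p under 0.05, while 16 did not pass. Calls came from a quasi-likelihood fit in edgeR, blocked by experiment and adjusted over 13869 genes, and over all of these 19.9% were called higher and 19.0% lower, or 38.9% together. The fit shared its estimate of spread across genes, so a standard error need not follow the 2 experiments of a gene. For Ctsb the log2 CPM ratios of Experiments 1 and 2 were 0.28 and 0.34 (standard error 0.18). For Ctsf they were -0.83 and -1.48 (standard error 0.16). The median log2 fold change of the 52 genes was 0.42, beside -0.02 over all genes tested. Both efferocytic libraries lay above both non-efferocytic libraries in CPM for 36 of the 52 genes, against 22.2% of all genes, and below them for 7, against 44.7%. The scaling factors of the fit added 0.15 and 0.07 to the log2 CPM ratios of Experiments 1 and 2, and a fitted value is therefore above the ratio of the printed CPM values. Leaving out the cells with barcodes shared within an experiment gave 30 genes higher and 5 lower (19.4% and 18.8% of all genes). Without either non-efferocytic library, in a fit that has no block and a lone library in that group, 0 of the 52 genes were called by edgeR, as were 2 genes in all (0.0141%) without that of Experiment 1 and 0 (0.0%) without that of Experiment 2. At an unadjusted p under 0.05, 27 members were higher and 2 lower in both fits, where 11.1% and 9.99% of all genes were higher and lower without the non-efferocytic library of Experiment 1, and 13.2% and 11.7% without that of Experiment 2. The median log2 fold changes in these fits were 0.63 and 0.73 for the proton pump (0.67 with all libraries), 0.45 and 0.48 for the cathepsins (0.51), 0.36 and 0.32 for the membrane, transport and activator proteins (0.35) and 0.28 and 0.21 for the other hydrolases (0.26).

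Summed over the 52 genes, the lysosomal share of the RNA was 50823 CPM in non-efferocytic and 65362 CPM in efferocytic cells of Experiment 1, and 50168 and 60880 CPM in Experiment 2. Counted per cell, Experiment 1 gave sums of 621 and 1220 UMIs, and Experiment 2 gave 518 and 1124. By both measures the efferocytic library was the higher in each experiment. The classes differed in their medians. The median log2 fold change was 0.67 for the proton pump, 0.51 for the cathepsins, 0.35 for the membrane, transport and activator proteins, 0.26 for the other hydrolases and -0.29 for the MiT/TFE factors. The difference between classes was not tested. Of the 13 genes with CACGTG in the promoter window, 9 were called higher and 1 lower, and of the 30 genes whose window lacked it, 15 were higher and 5 lower. The 6 genes with TCACGTGA, a form picked after the matches had been read, were each called higher. These counts are descriptions, beside 19.9% of all genes tested called higher and 19.0% lower. Calls among all genes with either motif were not counted, so it cannot be told whether such genes are called more often. The relation was not tested.

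**Figure D1:**
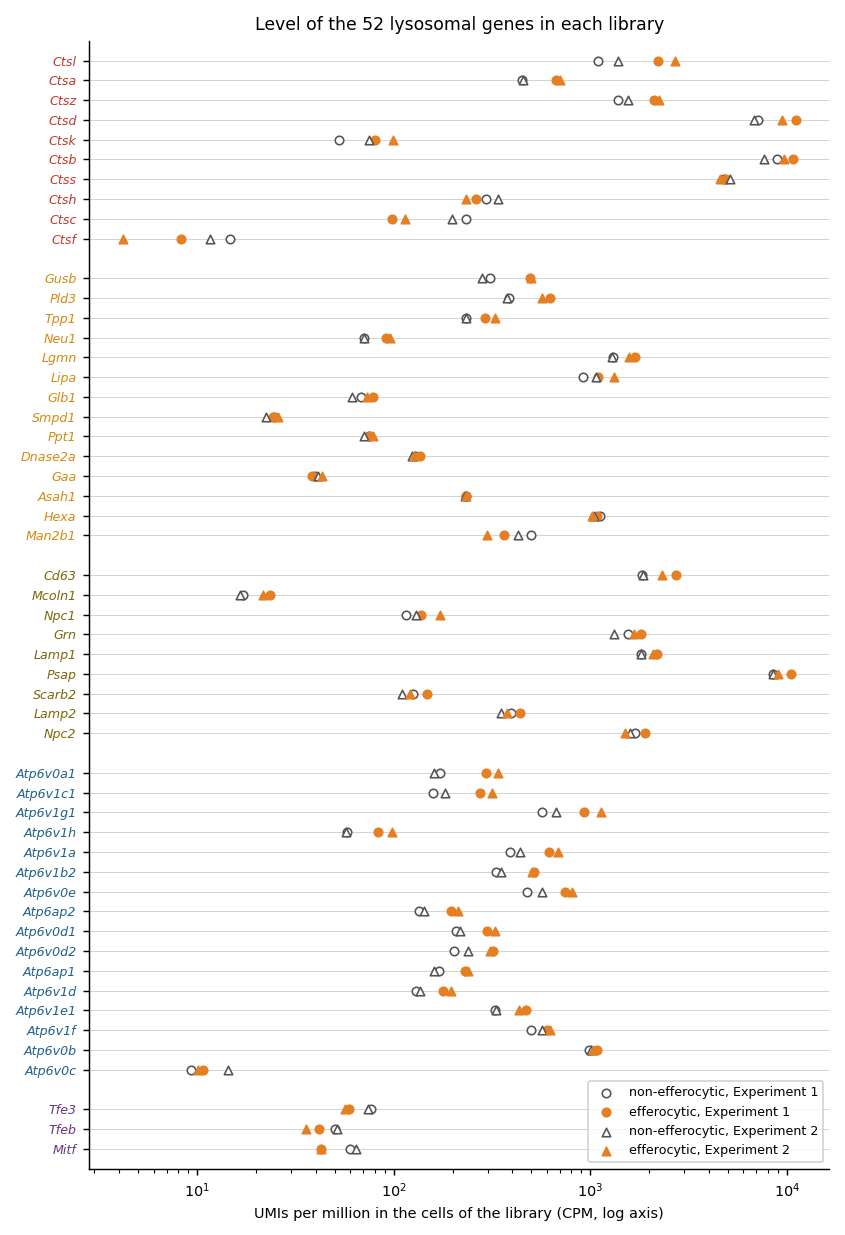
Level of each of the 52 genes in each library in CPM (log axis), with open symbols for non-efferocytic and filled symbols for efferocytic BM macrophages, circles for Experiment 1 and triangles for Experiment 2. For 36 genes both filled symbols lie to the right of both open symbols, and for 7, the 3 MiT/TFE factors among them, to the left.

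**Figure D2:**
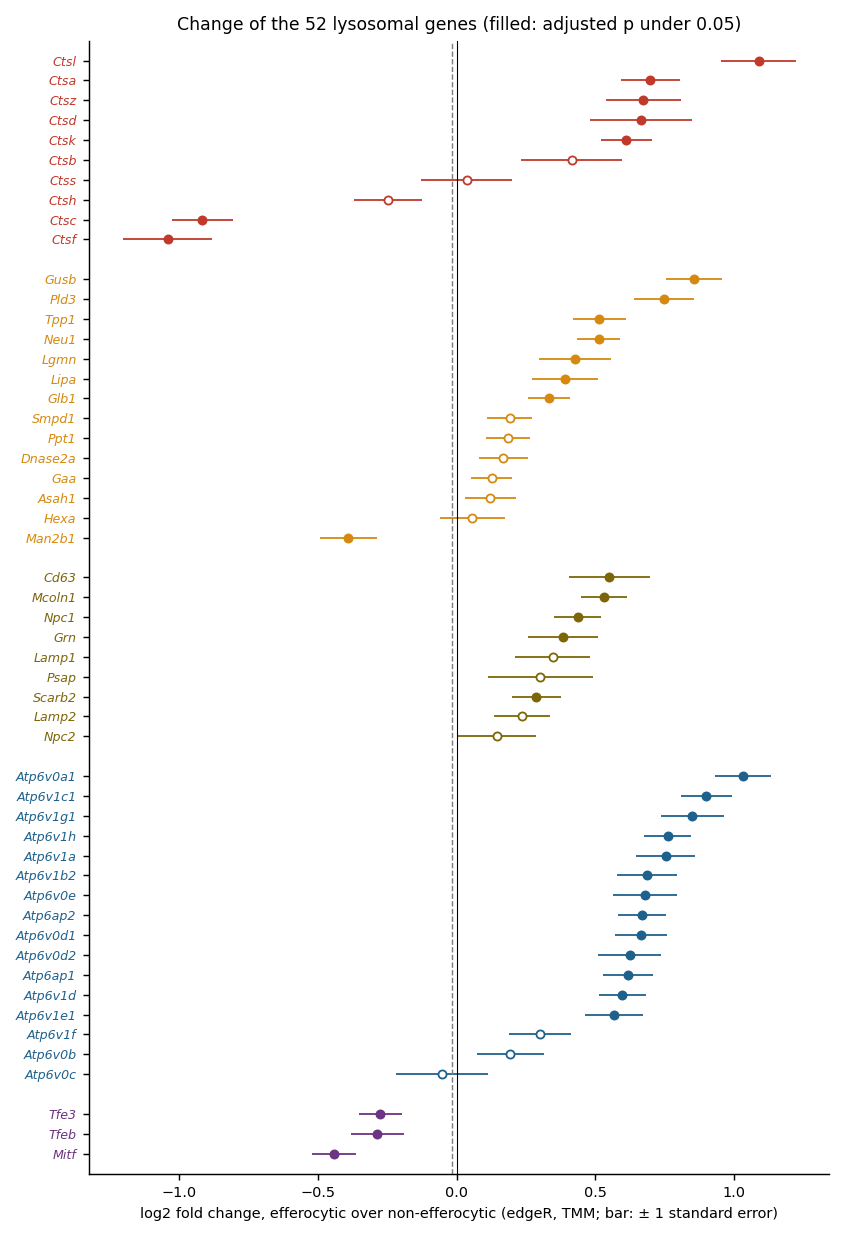
Fitted log2 fold change of each gene, efferocytic over non-efferocytic, with bars of 1 standard error of the fit, which shares its estimate of spread across genes. Filled points have an adjusted p under 0.05. The dashed line is the median of all genes tested (-0.02), and 13 of the 16 proton pump genes stand as filled points to its right.

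Of the 10 cathepsins, 5 were significantly higher and 2 significantly lower, and 3 did not pass. Their summed level was 24370 and 32231 CPM in the non-efferocytic and efferocytic libraries of Experiment 1, and 23629 and 29830 CPM in Experiment 2. Values below run from the non-efferocytic to the efferocytic library of the same experiment, and errors are standard errors of the fit. Ctsl, a cysteine endopeptidase, went from 1098 to 2207 CPM in Experiment 1 and from 1391 to 2703 CPM in Experiment 2. It was 2.13-fold higher with no overlap between the groups (log2 fold change 1.09 ± 0.13, edgeR adjusted p = 0.000813). Ctsa, a serine carboxypeptidase that also shields β-galactosidase and neuraminidase from breakdown, went from 449.5 to 666 CPM in Experiment 1 and from 457 to 702 CPM in Experiment 2. The groups were apart and the change was called (log2 fold change 0.70 ± 0.11, edgeR adjusted p = 0.00192). Ctsz, a carboxypeptidase, went from 1382 to 2118 CPM in Experiment 1 and from 1563 to 2240.5 CPM in Experiment 2. Its efferocytic libraries were the upper pair (log2 fold change 0.67 ± 0.13, edgeR adjusted p = 0.00615).

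Ctsd, the main aspartic protease of the lysosome, went from 7131 to 11108 CPM in Experiment 1 and from 6785 to 9451 CPM in Experiment 2. It was higher in both experiments, the groups did not overlap, and the fold change was 1.59 (log2 fold change 0.67 ± 0.19, edgeR adjusted p = 0.0239). The gene lies at chr7:142375911-142388038 on the minus strand of GRCm38, where it shares sequence with the annotated gene Gm49369 on that strand, so that its count may be split. Ctsk, a collagen-degrading cysteine protease best known from osteoclasts, went from 52.6 to 79.9 CPM in Experiment 1 and from 74.8 to 99.4 CPM in Experiment 2. Its groups were apart by less than in Ctsl, since the efferocytic library of Experiment 1 lay close to the non-efferocytic library of Experiment 2 (log2 fold change 0.61 ± 0.09, edgeR adjusted p = 0.00185), and without the non-efferocytic library of Experiment 1 the log2 fold change was 0.37. Of 8 osteoclast markers 6 were tested, of which 0 were called higher and 2 lower, with a sum over the 8 of 60.8 and 61.3 CPM in the non-efferocytic and 52.6 and 46.9 CPM in the efferocytic libraries. Per cell that sum was instead higher in efferocytic cells, at 0.744 against 0.981 UMIs in Experiment 1 and 0.632 against 0.866 in Experiment 2.

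Ctsc and Ctsf moved against the class. Ctsc, or dipeptidyl peptidase 1, which activates granule serine proteases of neutrophils and other leukocytes, went from 234 to 98.2 CPM in Experiment 1 and from 198 to 114 CPM in Experiment 2. Both efferocytic libraries were below both others (log2 fold change -0.92 ± 0.11, edgeR adjusted p = 0.000703). Ctsf, another cysteine protease of the lysosome, was expressed near 10 CPM and went from 14.7 to 8.28 CPM in Experiment 1 and from 11.7 to 4.18 CPM in Experiment 2. The efferocytic pair was again the lower (log2 fold change -1.04 ± 0.16, edgeR adjusted p = 0.00216), although the size rested on single libraries, with -0.52 when the efferocytic library of Experiment 2 was left out and -1.58 when that of Experiment 1 was. In UMIs per cell the log2 fold change was -0.30 for Ctsc and -0.43 for Ctsf, and neither passed at that scale (adjusted p = 0.217 and 0.171, edgeR).

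The level of 8 neutrophil-lineage markers fell with Ctsc, from 3067 to 959 CPM in Experiment 1 and from 3378 to 718 CPM in Experiment 2, and all 8 were called lower. Without the cells in which markers of other cell types made up over 0.1% of the UMIs, which were 0.627% to 5.53% of the cells of a library, the log2 fold change of Ctsc was -0.97 and that of Ctsf -1.09.

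Ctss, the cysteine protease that trims the invariant chain of MHC class II, went from 4798 to 4878 CPM in Experiment 1 and from 5149.5 to 4593 CPM in Experiment 2. Its experiments pointed in opposite directions, the groups overlapped, and it did not pass (log2 fold change 0.04 ± 0.17, edgeR adjusted p = 0.877). Ctsb gave 0.42 ± 0.18 and Ctsh, an aminopeptidase, -0.25 ± 0.12 on the log2 scale, with adjusted p = 0.105 and 0.146 (edgeR). Ctsb passed with DESeq2 (adjusted p = 0.000453) and in edgeR with library totals (0.0129), with UMIs per cell and with no filter on genes (0.0476), and Ctsh passed as lower with library totals (0.00854) and in thinned cells (0.0334). In CPM, both efferocytic libraries were above both others for Ctsb and below them for Ctsh.

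**Figure D3:**
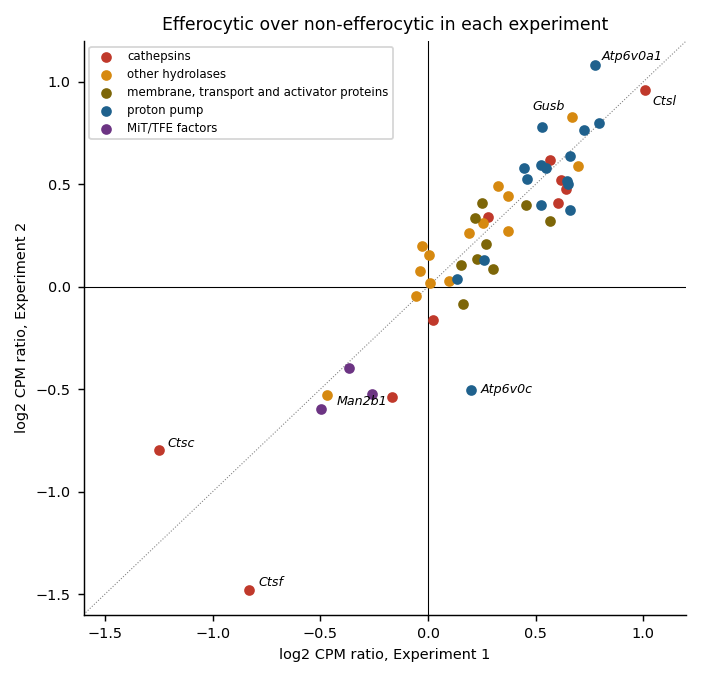
Log2 ratio of CPM, efferocytic over non-efferocytic, in Experiment 1 (horizontal) against Experiment 2 (vertical), 1 point per gene and coloured by class, with the dotted line marking equal ratios. Of the 52 genes, 39 are above 0 in both experiments, 8 below 0 in both, and 5 differ in sign, with Atp6v0c the farthest of these from the line.

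Of the other hydrolases, 7 of 14 were significantly higher, 1 was significantly lower and 6 did not pass. Gusb, the β-glucuronidase, went from 310.0 to 493 CPM in Experiment 1 and from 281 to 499 CPM in Experiment 2. Its libraries separated by group with little spread, and it was 1.81-fold higher (log2 fold change 0.86 ± 0.10, edgeR adjusted p = 0.000666). Pld3, an endolysosomal exonuclease of single-stranded nucleic acids, went from 385 to 623 CPM in Experiment 1 and from 379 to 569.9 CPM in Experiment 2. The groups were separate (log2 fold change 0.75 ± 0.11, edgeR adjusted p = 0.00161). Tpp1, a tripeptidyl peptidase, went from 233 to 292 CPM in Experiment 1 and from 233 to 327 CPM in Experiment 2. The non-efferocytic libraries were almost equal and both efferocytic libraries exceeded them (log2 fold change 0.52 ± 0.10, edgeR adjusted p = 0.00436). Neu1, a sialidase that works in a complex with cathepsin A, went from 70.8 to 91.4 CPM in Experiment 1 and from 70.2 to 95.3 CPM in Experiment 2. No library of one group reached the other (log2 fold change 0.51 ± 0.08, edgeR adjusted p = 0.00202).

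Lgmn, or legumain, an asparaginyl endopeptidase that processes cathepsins, went from 1309 to 1691 CPM in Experiment 1 and from 1295 to 1565 CPM in Experiment 2. The efferocytic libraries were higher by a fold of 1.35 (log2 fold change 0.43 ± 0.13, edgeR adjusted p = 0.0320). Lipa, the acid lipase that frees cholesterol and fatty acids from lipids delivered to the lysosome, went from 915 to 1092 CPM in Experiment 1 and from 1066 to 1324 CPM in Experiment 2. The groups did not overlap, but the efferocytic library of Experiment 1 exceeded the non-efferocytic library of Experiment 2 by little (log2 fold change 0.39 ± 0.12, edgeR adjusted p = 0.0325). Glb1, the β-galactosidase, was also called higher, by 0.33 ± 0.08 on the log2 scale.

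Man2b1, the lysosomal α-mannosidase, was the hydrolase that moved the other way, and went from 502 to 363 CPM in Experiment 1 and from 430.2 to 299 CPM in Experiment 2. Both efferocytic libraries lay below both others (log2 fold change -0.39 ± 0.10, edgeR adjusted p = 0.0190), whereas in UMIs per cell its log2 fold change was 0.23 and did not pass. Without the efferocytic library of Experiment 2 its CPM-scale value was -0.21. Man2b1 was not called lower with no block or with 10% of UMIs removed as free RNA.

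Gaa, the acid α-glucosidase, went from 39.5 to 38.5 CPM in Experiment 1 and from 40.98 to 43.3 CPM in Experiment 2. Smpd1, the acid sphingomyelinase, went from 24.7 to 24.3 CPM in Experiment 1 and from 22.4 to 25.7 CPM in Experiment 2. In both genes the experiments differed in sign, the groups overlapped and the fitted log2 changes of 0.13 ± 0.07 and 0.19 ± 0.08 did not pass. The other uncalled hydrolases were Hexa, Asah1, Ppt1 and Dnase2a, with log2 fold changes of 0.06 ± 0.12, 0.12 ± 0.09, 0.19 ± 0.08 and 0.17 ± 0.09. Asah1, the acid ceramidase, stayed within 230.8 to 234.5 CPM in the 4 libraries.

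Of the 9 membrane, transport and activator proteins, 5 were significantly higher, 0 were lower and 4 did not pass. Cd63, a tetraspanin of late endosomes and lysosomes, went from 1838 to 2724 CPM in Experiment 1 and from 1853 to 2315 CPM in Experiment 2. Both efferocytic libraries stood above the almost equal non-efferocytic ones (log2 fold change 0.55 ± 0.15, edgeR adjusted p = 0.0205). The annotation holds a pseudogene, Cd63-ps, and its effect on the count of Cd63 was not tested. Mcoln1, the calcium-release channel TRPML1, was expressed at a low level and went from 17.1 to 23.4 CPM in Experiment 1 and from 16.5 to 21.7 CPM in Experiment 2. The groups were apart (log2 fold change 0.53 ± 0.08, edgeR adjusted p = 0.00216). Npc1, which exports cholesterol from the lysosome, went from 115 to 138 CPM in Experiment 1 and from 129.7 to 172 CPM in Experiment 2. Its efferocytic libraries were the higher pair (log2 fold change 0.44 ± 0.09, edgeR adjusted p = 0.00562).

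Grn, the progranulin precursor, went from 1558 to 1811 CPM in Experiment 1 and from 1327 to 1676 CPM in Experiment 2. The groups did not overlap, and the change was near the threshold (log2 fold change 0.38 ± 0.13, edgeR adjusted p = 0.0450). Scarb2, the receptor that carries β-glucocerebrosidase to the lysosome, went from 126 to 147 CPM in Experiment 1 and from 111 to 122 CPM in Experiment 2. The groups overlapped, since the non-efferocytic library of Experiment 1 exceeded the efferocytic library of Experiment 2, and the call rested on the block by experiment (log2 fold change 0.29 ± 0.09, edgeR adjusted p = 0.0340). Without the block its adjusted p was 0.200 (edgeR), and its log2 fold change was 0.11 when the efferocytic library of Experiment 1 was left out and 0.47 when that of Experiment 2 was. With library totals in place of the scaling factors it was 0.18, with cells thinned to 5000 UMIs 0.19.

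Npc2, the soluble partner of Npc1, went from 1687 to 1889 CPM in Experiment 1 and from 1599 to 1508 CPM in Experiment 2. The experiments differed in sign and the groups overlapped (log2 fold change 0.15 ± 0.14, edgeR adjusted p = 0.437). Lamp1 and Lamp2, the most abundant glycoproteins of the lysosomal membrane, gave log2 fold changes of 0.35 ± 0.13 and 0.24 ± 0.10, and Psap, the precursor of the saposins, gave 0.30 ± 0.19. They did not pass, with adjusted p from 0.0743 to 0.236 (edgeR). For Lamp1 and Psap both efferocytic libraries were nonetheless above both non-efferocytic libraries in CPM. Genes of this class called higher numbered 7 with DESeq2 (14.3% of all genes), 6 with no filter on genes (15.3%) and 9 with UMIs per cell (49.9%). The other alternatives that kept all libraries gave from 1, with no block (9.27%), to 5.

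Of the 16 proton pump genes, 13 were significantly higher and 0 were lower. The pump genes summed to 4820 CPM in non-efferocytic and 6855 CPM in efferocytic cells of Experiment 1, and to 5255 and 7281 CPM in Experiment 2. A cell held on average 58.9 and 128 UMIs of them in Experiment 1, and 54.2 and 134 in Experiment 2. In 15 of the 16 genes both efferocytic libraries were above both non-efferocytic libraries in CPM. The 13 calls covered both sectors of the pump, with 7 of 8 V1 subunits (median log2 fold change 0.72), 4 of 6 V0 subunits (0.65) and both accessory proteins.

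Atp6v0a1, a membrane subunit a through which protons pass, had the largest fitted change of the pump genes and went from 172 to 293 CPM in Experiment 1 and from 161 to 340.2 CPM in Experiment 2. It was 2.05-fold higher with clearly separate groups (log2 fold change 1.03 ± 0.10, edgeR adjusted p = 0.000299). The gene lies at chr11:101009452-101063719 on the plus strand of GRCm38. Atp6v1c1, subunit C of V1, which links the sectors and is released when they come apart, went from 158 to 274 CPM in Experiment 1 and from 182 to 317 CPM in Experiment 2. The efferocytic libraries were the higher pair by a fold of 1.87 (log2 fold change 0.90 ± 0.09, edgeR adjusted p = 0.000376). Atp6v1g1, a stalk subunit, went from 566 to 934 CPM in Experiment 1 and from 672 to 1140.5 CPM in Experiment 2. Again no library crossed to the other group (log2 fold change 0.85 ± 0.11, edgeR adjusted p = 0.00113).

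Atp6v1h, the regulatory subunit H, went from 57.7 to 83.2 CPM in Experiment 1 and from 57.1 to 98.1 CPM in Experiment 2. The non-efferocytic libraries were nearly equal and both efferocytic ones were higher (log2 fold change 0.76 ± 0.08, edgeR adjusted p = 0.000489). Atp6v1a, the catalytic subunit A that hydrolyses ATP, went from 390.1 to 616 CPM in Experiment 1 and from 439 to 682 CPM in Experiment 2. The groups were separate (log2 fold change 0.76 ± 0.11, edgeR adjusted p = 0.00142). Atp6v1b2, its partner in the ATP-binding ring, went from 332 to 519 CPM in Experiment 1 and from 353 to 504 CPM in Experiment 2. It was higher to a like degree in both experiments (log2 fold change 0.69 ± 0.11, edgeR adjusted p = 0.00223). Atp6v1a and Atp6v1b2 were thus called in the same direction as the called stalk and membrane subunits.

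The remaining 7 called pump genes lay between 0.57 and 0.68 on the log2 scale. They were Atp6v0e (0.68 ± 0.12), Atp6v0d1 (0.67 ± 0.09), Atp6v0d2 (0.62 ± 0.11), Atp6v1d (0.60 ± 0.09), Atp6v1e1 (0.57 ± 0.11) and the accessory proteins Atp6ap1 (0.62 ± 0.09) and Atp6ap2 (0.67 ± 0.09). The alternative subunits d therefore had fold changes close to each other, although Atp6v0d2 is known for its place in osteoclasts and some macrophages and Atp6v0d1 is found in most cells.

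The 3 pump genes that did not pass were Atp6v1f (0.30 ± 0.11), Atp6v0b (0.19 ± 0.12) and Atp6v0c. Atp6v1f passed with DESeq2 (adjusted p = 0.0250) and in edgeR with no filter on genes (adjusted p = 0.0371), and had a log2 fold change of 0.19 when scaled to library totals. Atp6v0b gave 0.087 with library totals and 0.13 without the efferocytic library of Experiment 1. Atp6v0c, the proteolipid of the rotating ring, was listed at a low level and went from 9.30 to 10.7 CPM in Experiment 1 and from 14.4 to 10.1 CPM in Experiment 2. The libraries overlapped and the experiments differed in sign (log2 fold change -0.05 ± 0.17, edgeR adjusted p = 0.825). The annotation holds the pseudogenes Atp6v0c-ps1 and Atp6v0c-ps2, and Cell Ranger does not count reads that match several of its counted genes. Whether the pseudogenes were among these was not checked, so the level of Atp6v0c is uncertain.

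Subunit a is encoded by several genes, of which Atp6v0a1, Atp6v0a2 and Tcirg1, the form known from osteoclasts and phagosomes, were measured here. Atp6v0a1 made up 28.5% of the UMIs of these 3 genes in the non-efferocytic library of Experiment 1 (95% Wilson interval 28.2% to 28.9%) and 38.8% in the efferocytic library (38.5% to 39.1%). In Experiment 2 the shares were 26.6% (26.3% to 26.9%) and 42.9% (42.6% to 43.2%). Tcirg1 made up the larger share in each library, at 68.1% and 58.5% in Experiment 1 and 70.3% and 54.1% in Experiment 2. Its own level went from 409 to 443 CPM in Experiment 1 and from 426 to 429.6 CPM in Experiment 2. Tcirg1 did not pass (log2 fold change 0.17 ± 0.11, edgeR adjusted p = 0.230), and Atp6v0a2 was called higher by 0.27 ± 0.09 on the log2 scale. A share within a library does not depend on the scaling of libraries, although the genes may be captured unequally, and the intervals cover counting error only.

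**Figure D4:**
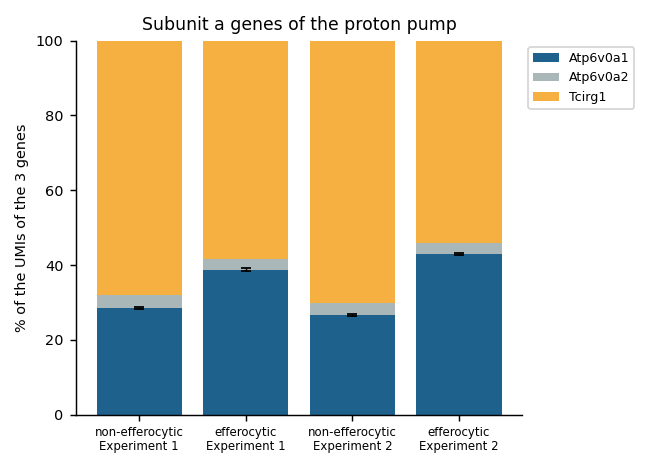
Share of the UMIs of Atp6v0a1, Atp6v0a2 and Tcirg1 in each library (percent), with the 95% Wilson interval of the Atp6v0a1 share. The Atp6v0a1 share is 38.8% and 42.9% in the efferocytic libraries and 28.5% and 26.6% in the non-efferocytic libraries.

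The 3 MiT/TFE factors of the set were each called lower as a share of the RNA, whereas per cell their log2 fold changes were above 0 (Tfeb 0.33, Tfe3 0.34, Mitf 0.18) and did not pass. Tfeb went from 50.01 to 41.7 CPM in Experiment 1 and from 51.2 to 35.6 CPM in Experiment 2. Both efferocytic libraries were the lower pair, and the change was near the threshold (log2 fold change -0.29 ± 0.10, edgeR adjusted p = 0.0457), with -0.13 when the efferocytic library of Experiment 2 was left out and -0.43 when that of Experiment 1 was. Tfe3 went from 76.4 to 59.3 CPM in Experiment 1 and from 74.1 to 56.2 CPM in Experiment 2. The groups were apart (log2 fold change -0.28 ± 0.08, edgeR adjusted p = 0.0262). Mitf went from 60.1 to 42.5 CPM in Experiment 1 and from 64.5 to 42.6 CPM in Experiment 2. Its efferocytic libraries were close together and below both others (log2 fold change -0.44 ± 0.08, edgeR adjusted p = 0.00412). Mitf alone of the 3 passed with no block, with DESeq2 and with 10% of UMIs removed as free RNA.

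In UMIs per cell, Tfeb averaged 0.611 and 0.779 in the non-efferocytic and efferocytic libraries of Experiment 1 and 0.528 and 0.658 in Experiment 2. Mitf averaged 0.735 and 0.794 in Experiment 1 and 0.665 and 0.786 in Experiment 2. These averages were higher in the efferocytic library of each experiment, but none of the 3 factors passed the test on this scale. Under the scaling to UMIs per cell the median of all genes tested was 0.60, and the class medians were 1.29 for the proton pump, 1.13 for the cathepsins, 0.97 for the membrane, transport and activator proteins, 0.88 for the other hydrolases and 0.33 for the MiT/TFE factors. Per cell, 50 of the 52 genes were higher in the efferocytic library of both experiments, and 44 were called higher and 0 lower, where 49.9% and 4.23% of all genes were called higher and lower.

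At equal depth, with each cell of at least 5000 UMIs thinned to 5000, the difference in the pump and the cathepsins was seen across the cells of a library. The median cell held 23 pump UMIs in the non-efferocytic and 33 in the efferocytic library of Experiment 1, and 25 and 36 in Experiment 2. The quartiles were 18 and 28 against 28 and 39 in Experiment 1, and 20 and 30 against 30 and 42 in Experiment 2, so that the lower quartile of the efferocytic cells equalled the upper quartile of the non-efferocytic cells. For the cathepsins the median cell of Experiment 1 held 119 and 162 UMIs, and that of Experiment 2 held 115 and 147. The coefficient of variation of the cathepsin sum over cells was 0.286 and 0.296 in the non-efferocytic and 0.224 and 0.239 in the efferocytic libraries. MiT/TFE transcripts were sparse, and 40.0% and 39.7% of non-efferocytic and 48.2% and 50.03% of efferocytic cells had none of them at this depth. Thinning left out 1099 and 3404 non-efferocytic and 544 and 505 efferocytic cells with fewer UMIs.

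Within a library, cells with more cathepsin UMIs also had more pump UMIs at this fixed depth, with Pearson's r of 0.39 and 0.44 in the non-efferocytic libraries (7181 and 10007 cells) and 0.32 and 0.45 in the efferocytic libraries (6151 and 7903 cells). Ctsb and Ctsd, counted as single genes, gave 0.52 and 0.57 in the non-efferocytic and 0.47 and 0.46 in the efferocytic libraries. Cells of 1 library share its chemistry and sequencing, and these values are descriptions.

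**Figure D5:**
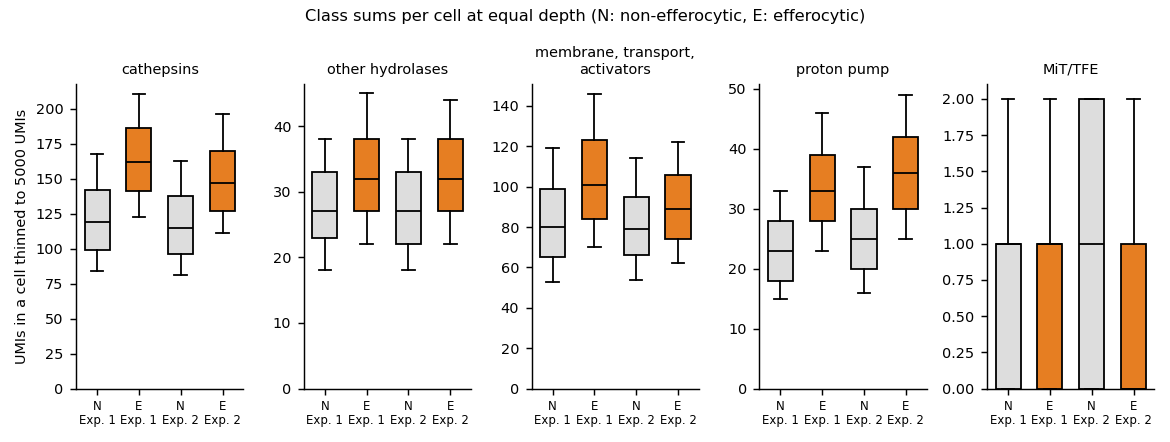
UMIs of each class in single cells thinned to 5000 UMIs, for non-efferocytic (N, grey) and efferocytic (E, orange) libraries of each experiment, with boxes from the lower to the upper quartile, a line at the median and whiskers from the 10th to the 90th percentile. The pump boxes of each experiment meet without overlapping, and the MiT/TFE box is at 0 or 1 UMI in the median cell.

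Antigen-presenting cells use a partly different set of cathepsins, and cells with MHC class II transcripts were unevenly divided between the groups. Cells in which H2-Aa, H2-Ab1, H2-Eb1 and Cd74 made up over 0.1% of the UMIs were 9.11% and 11.8% of the non-efferocytic cells and 0.792% and 1.27% of the efferocytic cells. In each of the 4 libraries these cells had a higher CPM of Ctsh, Ctss and Ctsc than the other cells of their library. For Ctsh the log2 ratio was 0.66 and 0.84 in the non-efferocytic and 0.68 and 1.13 in the efferocytic libraries. Ctss gave 0.33 and 0.31, and 0.44 and 0.46. Ctsl went the other way, with -0.51 and -0.62 in the non-efferocytic and -0.82 and -1.13 in the efferocytic libraries, and so did the summed proton pump, with -0.17 and -0.24, and -0.30 and -0.40. The efferocytic values rest on 53 and 107 cells. With the MHC class II cells left out of all libraries, 5 cathepsins were still called higher and 2 lower, 13 pump genes were called higher, and the log2 fold change of Ctsc was -0.87 (19.5% and 18.3% of all genes were called higher and lower in that fit).

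Other genes of the pathway, in 6 lists of 85 genes of which 80 were tested, gave 39 calls higher and 4 lower. Over all genes tested, 19.9% were called higher and 19.0% lower, and each list below stands beside these shares. Of 23 other lysosomal hydrolases, 11 were significantly higher and 0 lower, with a median log2 fold change of 0.23, led by the arylsulfatase Arsb (0.96 ± 0.09), the dipeptidyl peptidase Dpp7 (0.91 ± 0.07) and the α-galactosidase Gla (0.86 ± 0.08). Of 15 other membrane and accessory genes, 8 were higher and 2 lower. Cd68, the macrophage lysosomal glycoprotein, gave 0.63 ± 0.12 and Laptm4b gave 0.62 ± 0.12. The lower calls were Tpcn1, an ion channel of endolysosomes (-0.57 ± 0.08), and Gm2a, the activator of ganglioside breakdown (-0.36 ± 0.11).

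Of 13 genes that sort enzymes to the lysosome, 11 were significantly higher and 0 lower, with a median of 0.43. Gnptab, which makes the mannose 6-phosphate tag, went from 14.2 to 24.1 CPM in Experiment 1 and from 13.4 to 28.5 CPM in Experiment 2. The groups were apart (log2 fold change 1.03 ± 0.09, edgeR adjusted p = 0.000195). Igf2r, a receptor of that tag, gave 0.80 ± 0.08 on the log2 scale, and the retromer subunit Vps29 gave 0.73 ± 0.09.

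Of 19 genes of the lysosomal control of mTORC1 and TFEB, 7 were significantly higher and 0 lower, with a median of 0.16. The 3 with the largest change were Rragd (0.90 ± 0.08) and Rraga (0.48 ± 0.07), which encode Rag GTPases, and Lamtor3 (0.70 ± 0.09), a scaffold of the Ragulator complex. Of 7 cystatins, which inhibit cysteine cathepsins, 1 was higher and 2 were lower, beside 19.9% and 19.0% of all genes. Cstb, the cytosolic inhibitor, went from 1591 to 2607 CPM in Experiment 1 and from 1785 to 2585 CPM in Experiment 2. Its groups did not overlap (log2 fold change 0.73 ± 0.14, edgeR adjusted p = 0.00568). Cst7 and Stfa1 were called lower, both below 1 CPM in each library. Of 8 pump subunit genes outside the set, 3 passed the filter and Atp6v0a2 was the called gene.

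The sorted cells carried macrophage transcripts in each library. The sum of 10 macrophage markers was 38772 and 33269 CPM in the non-efferocytic and 30273 and 22486 CPM in the efferocytic libraries. As a share of the RNA, 6 of the 10 were called lower, among them Adgre1, which encodes F4/80. Per cell, however, the efferocytic libraries held more. The sum was 474 UMIs against 565 in efferocytic cells of Experiment 1, and 343 against 415 in Experiment 2. Adgre1 averaged 6.42 against 7.12 and 5.17 against 6.46 UMIs. Monocyte markers were at 68.8 and 77.8 CPM against 26.0 and 15.8 CPM, and fibroblast markers at 144 and 120 CPM against 46.0 and 52.3 CPM. The monocyte and fibroblast sums were lower in efferocytic cells on the scale of UMIs per cell as well. The part of these shifts in the lysosomal values was not tested beyond the counts that follow. Those counts do not address the monocyte and macrophage markers, which were not used to set cells aside. The other types were the neutrophil lineage, fibroblasts, epithelial and lymphoid cells, mast cells and basophils. Without the cells that carried markers of these other types, 26 of the 52 genes were called higher and 6 lower (18.3% and 17.5% of all genes). The genes whose call was lost were Lgmn, Lipa, Grn and Scarb2, with adjusted p from 0.0590 to 0.0788 (edgeR). Their log2 fold changes went from 0.43 to 0.38 for Lgmn, from 0.39 to 0.34 for Lipa, from 0.38 to 0.33 for Grn and from 0.29 to 0.24 for Scarb2.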

How the data were processed

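The deposited files hold UMI counts per gene and barcode, which the authors made with Cell Ranger 3.0.0 on mm10. The files' own headers name version 3.0.0 in Experiment 1 and 3.1.0 in Experiment 2, and no cells had been filtered out. Following the limits in the study's methods, a barcode counted as a cell when it had 200 genes or more, 1000 UMIs or more and no more than 10% of its UMIs from mitochondrial genes. On these unfiltered barcodes the limits kept more cells in each library than the study lists, most of all in the non-efferocytic library of Experiment 2 (13411 cells, or 10615 with a minimum added of 10% of the UMIs at percentile 99 of the 10000 largest barcodes, an older rule of Cell Ranger). With that minimum there were 29 members higher and 5 lower (18.9% and 18.1% of all genes). UMIs were summed per library, and 13869 genes were tested with edgeR 4.0.16 (filterByExpr, TMM factors, quasi-likelihood test) in R 4.3.3, blocked by experiment and with Benjamini-Hochberg adjustment. The labels tie the libraries of an experiment, and deviations from the group means within an experiment correlated across 7094 genes (Pearson's r = 0.627). The script was tested on simulated counts with 50 genes changed at each fold. It found 7 of the 50 at 1.25-fold, 40 at 1.5-fold and 50 at 2-fold, and called 3 unchanged genes. In the simulation, changes of 1.25-fold were thus mostly missed. It gave all genes the same spread and changed a far smaller part of them than the 38.9% called in the data. These rates therefore need not hold for the data. Among the members, Scarb2 was called at 1.22-fold, and the largest fitted change of a member that did not pass was 1.33-fold (Ctsb). Doublets were kept, and were left out in an alternative by scores against simulated pairs (scikit-learn 1.9.0). DESeq2 1.42.0 was an alternative.

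Members and lists were chosen with earlier results of these data known. Values in each library are given for the MiT/TFE factors and, in each other class, for up to 6 called members with the largest change, a mean of 10 CPM or more and an equal sign in both experiments, for members called against their class and for members whose experiments differ in sign. Of each other list, up to 3 called genes with the largest change were named. A gene that this rule would name is not reported here. Cathepsins and pump genes named beyond this were chosen after their values were seen. Gene positions are from GENCODE vM21 (GRCm38). Of the members, 6 overlap another annotated gene on their strand (Ctsd, Ctsl, Ctss, Glb1, Atp6v0a1 and Atp6v1e1). Wilson intervals are at 95%.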

Additional observations from a re-analysis of the deposited data

Results flagged for a closer look

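Barcodes with at most 100 UMIs, which hold free RNA rather than cells and enter none of the comparisons, carried 4 of the 5 lysosomal classes, all but the MiT/TFE factors, at a higher share of the RNA in the efferocytic than in the non-efferocytic library of each experiment. The log2 ratio of CPM in this free RNA was 0.3874 in Experiment 1 and 0.2983 in Experiment 2 for the cathepsins, and 0.367 and 0.3791 for the proton pump. It was 0.1805 and 0.2043 for the other hydrolases, and 0.262 and 0.1087 for the membrane, transport and activator proteins. The ratios in cells were 0.40 and 0.34 for the cathepsins, 0.51 and 0.47 for the proton pump, 0.22 and 0.23 for the other hydrolases, and 0.31 and 0.14 for the membrane, transport and activator proteins. The free RNA came from 5508902 to 7187929 UMIs in a library. With 10% of each library's UMIs removed in proportion to this free RNA, 13 pump genes, 5 cathepsins, 5 other hydrolases and 2 membrane, transport and activator proteins were called higher, where 9.98% of all genes were called higher and 7.65% lower. Without that removal the numbers were 13, 5, 7 and 5, where 19.9% and 19.0% of all genes were called. The log2 fold changes of the genes no longer called higher went from 0.43 to 0.41 for Lgmn, from 0.39 to 0.37 for Lipa, from 0.55 to 0.54 for Cd63, from 0.38 to 0.36 for Grn and from 0.29 to 0.27 for Scarb2. Groups of 2 libraries allow no check for a library that stands apart.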

How the results depend on the processing

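The number of members called higher stayed within 1.5 times of 30 (22 to 44) under all alternatives other than leaving out a library. Over these alternatives the share of all genes called higher ran from 9.27% to 49.9%. The 44 were found with UMIs per cell, where that share was 49.9%. Without the replicate block that pairs the libraries of an experiment, 22 members were higher and 2 lower, where 9.27% and 7.74% of all genes were called. The 22 were 13 pump genes, 4 cathepsins, 4 other hydrolases and 1 gene of the membrane class, against 13, 5, 7 and 5 with the block. Members called lower numbered 0 with UMIs per cell and 3 with 10% of UMIs removed as free RNA. Leaving out a library in turn, in fits that assume a lone library varies like the other group, gave 0 to 23 members higher and 0 to 5 lower. With the efferocytic library of Experiment 1 left out 23 were higher and 5 lower (11.5% and 8.86% of all genes), and with that of Experiment 2 left out 20 and 1 (4.44% and 4.04%). The pump had 13 genes called higher with no block and under each choice of cells, where 18.3% to 20.3% of all genes were called higher over the choices of cells, 0 without either non-efferocytic library, and 14 with DESeq2, where 14.3% and 10.2% of all genes were called higher and lower. It had 11 without the efferocytic library of Experiment 2, where Atp6v0d2 (0.68) and Atp6v0e (0.66) had adjusted p of 0.0541 and 0.0623 (edgeR).

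Class medians moved with the scaling. With library totals they were 0.41 for cathepsins, 0.24 for membrane, transport and activator proteins, 0.16 for other hydrolases and 0.56 for the proton pump, beside a median of all genes of -0.12. With UMIs per cell they were 1.13, 0.97, 0.88 and 1.29, and 0.33 for the MiT/TFE factors, which reversed their sign. With genes of 10 CPM or more the membrane class gave 0.25, other hydrolases 0.17 and the pump 0.57. Thinned cells gave 0.28 for the membrane class and 0.65 for the pump. Without cells with markers of other types, the cathepsins gave 0.46, the membrane class 0.30 and the pump 0.63. The pump gave 0.69 with no filter on genes and 0.66 with free RNA removed. Leaving out a library gave 0.41 to 0.50 for cathepsins, 0.28 to 0.45 for the membrane class, 0.63 to 0.73 for the pump and -0.43 to -0.19 for the MiT/TFE factors.

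Single members changed sign with UMIs per cell (Atp6v0c 0.57, Ctsh 0.37, Man2b1 0.23, Mitf 0.18, Tfe3 0.34, Tfeb 0.33). Ctss gave -0.0707 with library totals, -0.059 with genes of 10 CPM or more and -0.0177 without cells of other types. Hexa gave -0.0499 with library totals, -0.0382 with genes of 10 CPM or more and -0.0132 in thinned cells. Over the fits that leave out a library, Atp6v0c ranged from -0.35 to 0.28, Ctss from -0.04 to 0.12, Hexa from -0.0171 to 0.14 and Npc2 from -0.0487 to 0.35. None of these reversed values passed the test. The cause of these shifts was not tested beyond what each scaling sets by construction. The alternative for shared barcodes was chosen after seeing the data.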
